A study of Mus musculus with 32 samples.

Results

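Cultured WT precursor B cells were compared with precursor B cells sorted from WT bone marrow. The cultured group held 4 arrays of healthy wild-type mice titled as bone marrow B220+ cells, and the sorted group held 4 arrays of healthy wild-type mice titled as bone marrow proB and preB cells. These were 8 of the 32 mouse gene arrays of the series, chosen by sample title alone, and all 20874 autosomal probesets of the 28944 on the array were used. The other arrays came from cultured Pax5+/-, Pax5+/-;Myd88+/- and Pax5+/-;Myd88-/- cells (4 each) and from leukemic bone marrow of Pax5+/-;Myd88+/- and Pax5+/- mice (6 each), and they serve here only as a description. The methods state that B220+ cells were isolated magnetically from the marrow of mice 2 to 3 weeks old and were then grown with 5 ng/ml recombinant IL7 in medium with 2% serum on feeder cells of the ST2 stromal line. The labels of the cultured arrays mention only the magnetic B220 selection. The culture methods name WT, Pax5+/- and Pax5+/-;Myd88+/- mice but not Pax5+/-;Myd88-/- mice. Cells of this last genotype are called cultured here only because their titles also read bone marrow B220+ cells. The sorted cells are labelled B220low IgM-, a gate that takes in both proB and preB cells, and no age is given for their mice. All 8 mice carried intact Pax5 and Myd88, had no treatment, and belonged to a colony that was kept free of specific pathogens until 2 months of age. Culture, mouse age and experiment therefore changed together between the groups and cannot be told apart.

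B-cell precursors in the marrow pass through a proB stage, in which the immunoglobulin heavy chain is rearranged and the cells depend on IL7, and a large preB stage, in which the new heavy chain pairs with the surrogate light chain (Igll1 with Vpreb1 or Vpreb2) to form the pre-B-cell receptor. Signals from that receptor, through Cd79a, Cd79b, Syk and Blnk, lead to small resting preB cells that rearrange the light chain. IL7 acts through JAK kinases and STAT5 to keep proB cells dividing, and its withdrawal, together with Ikzf1, Ikzf3, Irf4 and Irf8, moves them on to the small preB stage. Growth of B220+ marrow cells with IL7 on stromal cells is the usual way to expand the proB stage.

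Several features of the arrays bear on all results. Array medians were 6.92 to 6.98 in cultured and 6.90 to 6.98 in sorted cells (log2 values, the unit used throughout). Cultured arrays 1 and 3 correlated at 0.9982 and arrays 2 and 4 at 0.9979 over all probesets, with 0 and 2 probesets over 1 log2 unit apart, whereas the other cultured pairs correlated at 0.9906 to 0.9912 with 234 to 253 probesets over 1 apart. The labels call all of them biological replicates, but the cultured group may hold fewer than 4 independent cultures, and the p-values measure only the spread between these arrays. Sorted arrays correlated at 0.9929 to 0.9958 with each other, and cultured with sorted arrays at 0.9320 to 0.9423. The X-linked Xist, which is transcribed from the inactive X chromosome of females, read 5.32 to 6.11 in cultured and 12.23 to 12.46 in sorted cells, and the Y-linked Kdm5d, Uty and Eif2s3y read 8.36 to 9.86 in cultured and 4.82 to 5.38 in sorted cells. The cultured arrays thus carried a male and the sorted arrays a female pattern, so that sex was also confounded with the comparison and cannot be told apart from it.

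More probesets were lower than higher in cultured cells. A probeset was called when its adjusted p was under 0.05 (limma, Benjamini-Hochberg over all probesets) and its log2 change, cultured minus sorted, was over 1 in size, which is a fold change over 2. Of the autosomal probesets, 2154 were called (10.3%), 684 of them higher (3.28%) and 1470 lower (7.04%) in cultured cells. With 1 probeset for each of 19104 autosomal genes, 1926 were called (10.1%), 575 higher (3.01%) and 1351 lower (7.07%), and the median change over all genes was 0.02. The groups did not overlap for 8989 genes (47.1%). A lack of overlap was thus common, and where it is given for a named gene below it only describes the values. When cultured arrays 1 and 3, and 2 and 4, were averaged and counted as 2 samples, 2133 probesets were called, 679 higher and 1454 lower.

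The general B-lineage genes were high on both sides. Pax5, the transcription factor that commits cells to the B lineage, read 11.53, 11.81, 11.63 and 11.81 in cultured cells, against 11.91, 11.81, 11.91 and 12.05 in sorted cells, and the groups overlapped (change -0.23 ± 0.08, SE; adjusted p = 0.0437). Ebf1, the factor that acts with Pax5 in B-cell specification, averaged 12.14 ± 0.13 in cultured and 12.42 ± 0.09 in sorted cells (SD, n = 4 each). Cd79a, the signaling chain shared by the pre-B-cell and B-cell receptors, averaged 12.53 ± 0.09 in cultured and 12.98 ± 0.02 in sorted cells. The changes of these genes were all under 0.5 in size and none was called.

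The stage markers moved apart. Vpreb1, a surrogate light chain component of proB and large preB cells, read 12.57, 12.02, 12.65 and 12.00 in cultured cells, against 9.57, 9.82, 9.31 and 8.78 in sorted cells, which is 7.67-fold higher in cultured cells (change 2.94 ± 0.23, SE; adjusted p = 5.89e-06). Vpreb2, its close relative, was 4.03-fold higher (2.01 ± 0.12; adjusted p = 9.9e-07). Kit, the stem cell factor receptor that marks proB cells, read 11.13, 10.08, 11.16 and 10.12 in cultured cells, against 8.0, 8.0, 8.02 and 7.46 in sorted cells (2.75 ± 0.27; adjusted p = 2.51e-05). All cultured arrays lay above all sorted arrays for these 3 genes, and for Kit arrays 1 and 3 stood about 1 log2 unit above arrays 2 and 4. Vpreb1 and Vpreb2 are near-identical genes and can share probes, so that their changes are not separate observations. Igll1, the other surrogate light chain gene, moved by -0.38 and was not called.

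Not all proB genes were higher in culture. Of the 25 genes of a list of proB-stage genes, 4 were called higher and 3 lower, with a median change of 0.05. Dntt, the terminal transferase that adds bases at heavy chain junctions, read 12.02, 9.90, 11.96 and 9.93 in cultured cells, against 10.87, 10.83, 10.74 and 10.31 in sorted cells. The sorted arrays lay between the 2 pairs of cultured arrays, and Dntt was not called (0.26 ± 0.50; adjusted p = 0.688). Flt3, the receptor of lymphoid progenitors, read 8.91 to 9.37 in cultured and 8.90 to 9.37 in sorted cells. Enpep, the aminopeptidase BP-1 that appears on early preB cells and is itself known as an IL7-inducible antigen, read 5.55 to 5.87 in cultured and 8.06 to 9.10 in sorted cells (-2.82 ± 0.23; adjusted p = 6.47e-06). Bst1 (-1.63), the BP-3 antigen of early B-lineage cells, and Cd93 (-1.23), the AA4.1 antigen of B-cell precursors, were also lower in cultured cells.

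**Figure D1:**
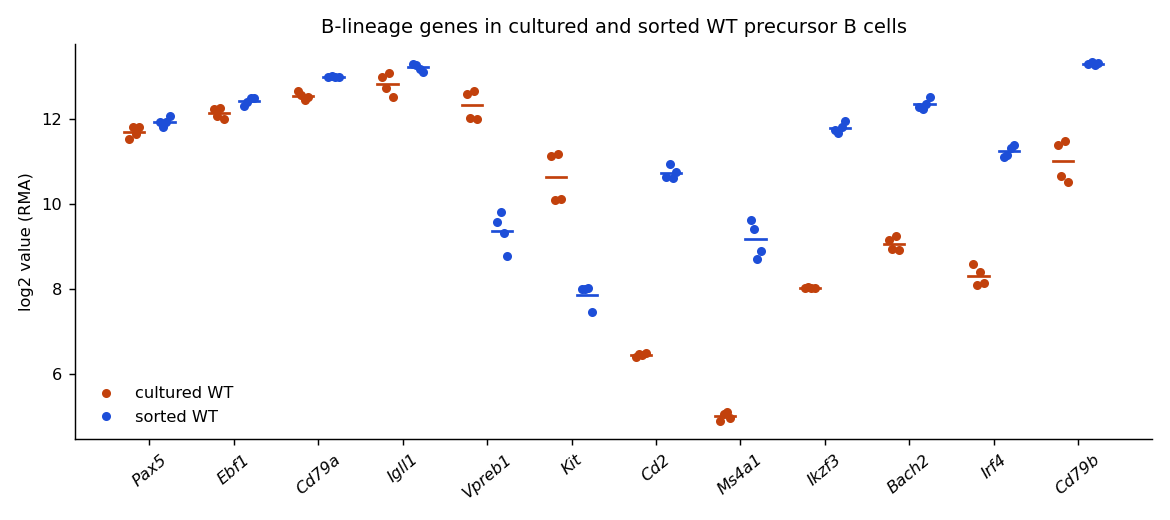
Log2 values of 12 B-lineage genes on each array (points) with the group mean (lines), cultured WT in orange at left and sorted WT in blue at right of each gene. Pax5, Ebf1, Cd79a and Igll1 differ by less than 0.5 between the means, Vpreb1 and Kit lie over 2 units higher in cultured cells, and Cd2, Ms4a1, Ikzf3, Bach2, Irf4 and Cd79b lie over 2 units lower.

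Genes of the small preB stage fell. Of 25 genes of this stage, 17 were called lower and 0 higher in cultured cells, with a median change of -2.08 against 0.02 over all genes. Cd2, an adhesion receptor that appears on mouse B cells at the small preB stage, read 6.40, 6.48, 6.46 and 6.49 in cultured cells, against 10.64, 10.94, 10.61 and 10.75 in sorted cells (-4.28 ± 0.08; adjusted p = 4.95e-10). Ms4a1, which encodes CD20, read 4.90, 5.06, 5.12 and 4.98 in cultured cells, against 9.63, 9.42, 8.71 and 8.90 in sorted cells (-4.15 ± 0.18; adjusted p = 1.43e-07). Both genes read in culture at a level below the array median, and the files give no detection call, so that a low value cannot be told from absence. In such bulk samples, fewer cells of a stage and less RNA per cell cannot be told apart.

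Transcription factors of this transition were lower as well. Ikzf3, the Ikaros family member Aiolos that rises with pre-B-cell receptor signaling, read 8.02, 8.04, 8.02 and 8.02 in cultured cells, against 11.74, 11.66, 11.80 and 11.94 in sorted cells (-3.76 ± 0.06; adjusted p = 4.16e-10). Bach2, a repressor that acts at the pre-B-cell receptor checkpoint, averaged 9.07 ± 0.16 in cultured and 12.34 ± 0.12 in sorted cells (-3.28; adjusted p = 7.78e-09). Irf4 (-2.92) and Irf8 (-2.58), which drive light chain rearrangement, and Spib (-3.16), an Ets factor of B cells and plasmacytoid dendritic cells, were lower on all cultured arrays than on any sorted array. Of 38 B-lineage transcription factors, 11 were called lower and 1 higher, with a median of -0.42. Erg, an Ets factor of progenitors and proB cells, was the gene called higher, at 11.10 to 11.42 in cultured and 10.14 to 10.33 in sorted cells (1.07 ± 0.09; adjusted p = 6.28e-06). Id2, which blocks E-protein factors and is high in NK cells and dendritic cells, read 6.23 to 6.93 in cultured and 10.04 to 10.91 in sorted cells (-3.96 ± 0.19; adjusted p = 2.71e-07).

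The small preB list had exceptions that stood out by their level. Il2ra, which encodes the CD25 surface marker of small preB cells, read 11.68, 11.75, 11.72 and 11.78 in cultured cells, against 11.60, 11.47, 11.53 and 11.71 in sorted cells, and was not called (0.15 ± 0.06; adjusted p = 0.0649). Il2ra is also a known target of STAT5. Rag1, part of the V(D)J recombinase, read 11.87, 10.65, 11.86 and 10.76 in cultured cells, against 11.09, 11.42, 10.97 and 10.98 in sorted cells (0.17 ± 0.29; adjusted p = 0.653). Rag2, its partner, showed the same split of the cultured arrays, 10.17, 8.63, 10.20 and 8.72, around sorted values of 9.52, 9.61, 9.27 and 8.92. Foxo1, a factor that drives the Rag genes, averaged 10.40 ± 0.07 in cultured and 11.18 ± 0.02 in sorted cells, a change of -0.77 that passed the adjusted p (2.29e-06) but not the fold threshold.

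Among 15 genes of V(D)J recombination, 4 were called lower and 1 higher. Polm, the DNA polymerase that fills ends at light chain junctions, read 6.51 to 6.55 in cultured and 10.10 to 10.34 in sorted cells (-3.73 ± 0.06; adjusted p = 3.15e-10). Lig4 (-1.63), the ligase of end joining, and Paxx (-1.40), a scaffold of the same pathway, were also lower. Atm, the kinase that responds to DNA breaks, was higher, at 9.96 to 10.27 in cultured and 8.82 to 9.10 in sorted cells (1.16 ± 0.08; adjusted p = 3.52e-06).

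The list of pre-B-cell receptor and proximal signaling genes had 19 members, of which 6 were called lower in cultured cells and 3 higher, with Vpreb1, Vpreb2 and Pik3cd as the higher ones. Cd79b, the partner of Cd79a, read 11.37, 10.66, 11.48 and 10.52 in cultured cells, against 13.28, 13.33, 13.25 and 13.31 in sorted cells (-2.28 ± 0.20; adjusted p = 1.26e-05). Cd79a moved by -0.45, so that the 2 chains of the signaling dimer changed unequally. Syk, the kinase they recruit, was lower by 1.47 on the log2 scale in cultured cells (-1.47 ± 0.13; adjusted p = 1.15e-05). Vpreb3 (-1.86, not called when all 32 arrays shared 1 fit), which binds immunoglobulin chains in the preB cell, Pik3ap1 (-1.90), the adaptor BCAP that links the receptor to PI3 kinase, and Dok3 (-1.95), an inhibitory adaptor, were lower too. Blnk, the adaptor that Syk phosphorylates, was not called (-0.30 ± 0.18; adjusted p = 0.188), and Pik3cd, the catalytic PI3 kinase subunit of lymphocytes, was higher (1.30 ± 0.11; adjusted p = 1.19e-05). Ighm, the heavy chain gene, had 3 probesets that fell by 2.09, 2.21 and 5.93 on the log2 scale in cultured cells.

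Genes of antigen presentation fell. Of 12 genes of MHC class II presentation, 10 were called lower and 0 higher, with a median of -2.18. H2-Aa, a class II alpha chain, read 5.50, 5.29, 5.31 and 5.08 in cultured cells, against 11.19, 10.73, 9.87 and 10.66 in sorted cells, 39.9-fold lower in cultured cells (-5.32 ± 0.24; adjusted p = 1.45e-07). Ciita, the master regulator of class II genes, moved by -1.34. H2-Ea, a class II gene outside the list, averaged 6.24 ± 0.12 in cultured and 11.48 ± 0.35 in sorted cells. It also differed widely within a genotype, from 5.88 to 12.76 among the Pax5+/- leukemias. The part of the mixed strain background in the H2-Ea values was not tested. Dendritic cells express the same genes, and the dendritic cell markers described further on were also lower in culture. The part of dendritic cells in the result was not tested. Of 26 genes of immature and mature B cells, 12 were called lower and 0 higher. Fcer2a, which encodes the CD23 receptor of mature B cells, read 5.84 to 6.01 in cultured and 6.03 to 6.27 in sorted cells, near the bottom of the scale in both groups.

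The IL7 response was read from 26 genes of the receptor, its kinases, STAT5 targets and feedback inhibitors. Of these, 5 were called higher and 0 lower in cultured cells, with a median of 0.34. Socs2, a STAT5-induced inhibitor of cytokine signaling, read 11.09, 11.81, 11.19 and 11.83 in cultured cells, against 9.99, 10.26, 10.08 and 9.64 in sorted cells (1.49 ± 0.20; adjusted p = 0.000176). Cish, another such feedback inhibitor, read 7.88, 9.11, 7.84 and 9.01 in cultured cells, against 7.29, 7.22, 6.87 and 7.06 in sorted cells (1.35 ± 0.29; adjusted p = 0.00396). Ccnd2, the D-type cyclin that IL7 induces in proB cells, was 2.50-fold higher (1.32 ± 0.20; adjusted p = 0.000484). For all 3 genes every cultured array lay above every sorted array, and arrays 2 and 4 above arrays 1 and 3.

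The cultured pairs also split for Myc, Bcl2, Lta and Il7r. Myc, the growth regulator, read 10.18, 11.97, 10.19 and 11.93 in cultured cells, against 9.57, 9.77, 9.52 and 9.50 in sorted cells (1.48 ± 0.42; adjusted p = 0.0153). Bcl2, the survival factor, read 9.56, 11.61, 9.61 and 11.50 in cultured cells, against 9.81, 9.20, 9.31 and 9.24 in sorted cells, and was not called (1.18 ± 0.47; adjusted p = 0.066), though it was without cultured array 1 (1.52) or 3 (1.5). Lta, which encodes the cytokine lymphotoxin alpha, read 7.21, 10.31, 7.09 and 10.23 in cultured cells, against 6.17, 6.13, 6.49 and 6.18 in sorted cells (2.47 ± 0.73; adjusted p = 0.0194). Il7r, the receptor chain itself, ran the other way, at 12.54, 11.26, 12.50 and 11.23 in cultured cells, against 12.55, 12.52, 12.46 and 12.48 in sorted cells. Arrays 1 and 3 matched the sorted cells for Il7r, and arrays 2 and 4 lay over 1 log2 unit below them. Over all genes, 69 were over 1 log2 unit higher in arrays 2 and 4, and 113 over 1 higher in arrays 1 and 3. With arrays 1 and 2 of the sorted group left out, Myc and Lta were no longer called.

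Growth was read from MYC targets and from cell cycle genes. Of 48 MYC targets of ribosome biogenesis, 16 were called higher and 0 lower, with a median of 0.65, and 43 had a change above 0. Nop58, a core protein of the small nucleolar ribonucleoproteins that modify ribosomal RNA, read 10.81, 11.33, 10.78 and 11.38 in cultured cells, against 9.20, 9.49, 9.40 and 9.05 in sorted cells (1.79 ± 0.16; adjusted p = 1.31e-05). Without cultured array 2 there were 11 such targets called higher, and without cultured array 4 there were 10. Of 50 genes of G1/S and replication, 2 were called higher and 4 lower (median 0.01), and of 46 genes of G2/M and mitosis, 1 was called higher and 4 lower (median 0.03). Cdk6, the kinase that pairs with Ccnd2, read 12.79 to 12.95 in cultured and 10.76 to 10.94 in sorted cells (2.04 ± 0.06; adjusted p = 1.47e-08). The shares called in both cell cycle lists were close to those of all genes.

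Genes that restrain division were lower in culture, 8 of 22 called lower and 1 higher, with a median of -0.68. Btg2, an antiproliferative gene, read 9.52, 8.42, 9.50 and 8.53 in cultured cells, against 11.80, 11.84, 11.98 and 11.90 in sorted cells (-2.89 ± 0.25; adjusted p = 1.03e-05). Btg1, its relative, averaged 10.54 ± 0.31 in cultured and 12.98 ± 0.10 in sorted cells. The exception was Cdkn2a, whose locus encodes p16Ink4a and p19Arf and is known to be induced in cultured cells, at 9.13, 9.12, 8.75 and 8.95 in cultured cells, against 7.06, 7.10, 7.0 and 7.17 in sorted cells (1.90 ± 0.09; adjusted p = 1.96e-07).

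The microRNAs of the miR-17 to miR-92a-1 cluster, a known MYC target that supports the passage from proB to preB cells in mice, were read by probesets on their precursors or host transcript on chromosome 14, and not as mature molecules. The cluster was picked after its values were seen. The mature products of the 5 members with a probeset of their own are shown because they fall into 3 seed groups, and the probeset of the miR-92a member names several genes and was not used. They are given with the seed (bases 2 to 8) in capitals, from RefSeq on GRCm38.p6:
mmu-miR-17-5p: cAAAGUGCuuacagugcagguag
mmu-miR-20a-5p: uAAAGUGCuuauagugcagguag
mmu-miR-18a-5p: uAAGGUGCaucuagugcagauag
mmu-miR-19a-3p: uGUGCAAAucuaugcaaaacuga
mmu-miR-19b-3p: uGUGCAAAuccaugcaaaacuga
miR-17 and miR-20a share the seed AAAGUGC, miR-18a has AAGGUGC, and miR-19a and miR-19b share GUGCAAA. The Mir18 probeset read 8.31, 8.98, 8.39 and 8.94 in cultured cells, against 6.08, 5.57, 5.71 and 5.87 in sorted cells (2.85 ± 0.17; adjusted p = 1.08e-06). The Mir19b-1 (1.67), Mir19a (1.54) and Mir20a (1.30) probesets were also called higher, so that each seed group had a member called. The Mir17 probeset reached 0.95 and was not called, though it was without cultured array 1 (1.07) or 3 (1.04) or sorted array 3 (1.0), and the host gene Mir17hg moved by 0.30. In all 5 precursor probesets arrays 2 and 4 lay above arrays 1 and 3.

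Genes of sterol and fatty acid synthesis rose. Cells make cholesterol from acetyl-CoA through a chain of enzymes whose genes are switched on together by the transcription factor SREBP2 when sterols run low, and the related SREBP1 does the same for fatty acid synthesis. Of 27 genes of both, 15 were called higher (55.6%) and 0 lower, the median was 1.39, and 26 had a change above 0. Cyp51, the lanosterol demethylase, read 10.60, 10.80, 10.51 and 10.97 in cultured cells, against 8.0, 7.99, 8.20 and 7.93 in sorted cells (2.69 ± 0.10; adjusted p = 6.21e-08). Hmgcs1, the synthase at the entry of the pathway, read 11.04, 11.20, 11.10 and 11.33 in cultured cells, against 8.99, 9.03, 9.36 and 9.20 in sorted cells (2.02 ± 0.10; adjusted p = 2.18e-07). Acaca, which makes malonyl-CoA for fatty acids, was 4.79-fold higher (2.26 ± 0.14; adjusted p = 1.27e-06). No cultured array overlapped a sorted array for these 3 genes.

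Further members were picked after their values were seen. Fasn, the fatty acid synthase, read 10.71, 11.68, 10.59 and 11.71 in cultured cells, against 9.18, 9.26, 9.33 and 9.40 in sorted cells (1.88 ± 0.25; adjusted p = 0.000194). Insig1, an SREBP target that holds the factors back when sterols are plentiful, moved by 0.46, and Srebf2, the gene of SREBP2, by 0.88, both under the fold threshold. Tm7sf2, a sterol reductase, was the member with a change below 0, at -0.17. The other cultured genotypes lay near the cultured WT cells: Hmgcs1 averaged 10.84, 10.94 and 11.01 in cultured Pax5+/-, Pax5+/-;Myd88+/- and Pax5+/-;Myd88-/- cells. In leukemias it averaged 9.22 (Pax5+/-;Myd88+/-) and 9.23 (Pax5+/-), against 9.14 in sorted WT cells. Cyp51 averaged 9.04 (Pax5+/-;Myd88+/-) and 8.67 (Pax5+/-) in leukemias, against 8.03 in sorted WT cells, and Fasn 9.90 and 10.53, against 9.29. The leukemia means of Cyp51 and Fasn thus lay above the sorted mean and below the cultured WT mean. Insig1 did not, at 8.7 to 9.97 in leukemias against 10.28 to 10.81 in sorted WT cells.

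The promoters of Hmgcs1 and Cyp51 are shown as the sterol genes with named roles at the entry and middle of the pathway, from 250 bases before to 50 after the RefSeq start (GRCm38.p6, chr13:119690101-119690400, plus strand, and chr5:4104648-4104947, minus strand). Capitals mark the NF-Y box CCAAT, which reads ATTGG on the other strand, and the SREBP site TCACNCCAC. Both motifs were searched on both strands, and they did not overlap.
Hmgcs1 promoter: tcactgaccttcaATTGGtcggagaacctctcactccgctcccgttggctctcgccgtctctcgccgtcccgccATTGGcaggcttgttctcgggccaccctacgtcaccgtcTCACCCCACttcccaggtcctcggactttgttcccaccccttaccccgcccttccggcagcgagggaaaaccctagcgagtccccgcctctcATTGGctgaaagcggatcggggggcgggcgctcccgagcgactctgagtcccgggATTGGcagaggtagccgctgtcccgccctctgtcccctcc
Cyp51 promoter: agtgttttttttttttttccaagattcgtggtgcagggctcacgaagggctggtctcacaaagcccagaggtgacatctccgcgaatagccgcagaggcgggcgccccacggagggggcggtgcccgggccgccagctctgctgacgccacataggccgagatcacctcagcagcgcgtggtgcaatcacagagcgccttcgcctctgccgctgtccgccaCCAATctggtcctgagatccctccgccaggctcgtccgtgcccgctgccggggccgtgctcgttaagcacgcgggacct
The Hmgcs1 window held 4 CCAAT boxes and 1 TCACNCCAC site, and the Cyp51 window 1 CCAAT box. Of the 27 genes of the list, 20 had a promoter in the table, and 17 of these held CCAAT (85.0%), against 41.1% of 27025 genes. TCACNCCAC was found in 1 of the 20, against 1.44% of all genes. These are matches of letters and not sites shown to be bound.

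**Figure D2:**
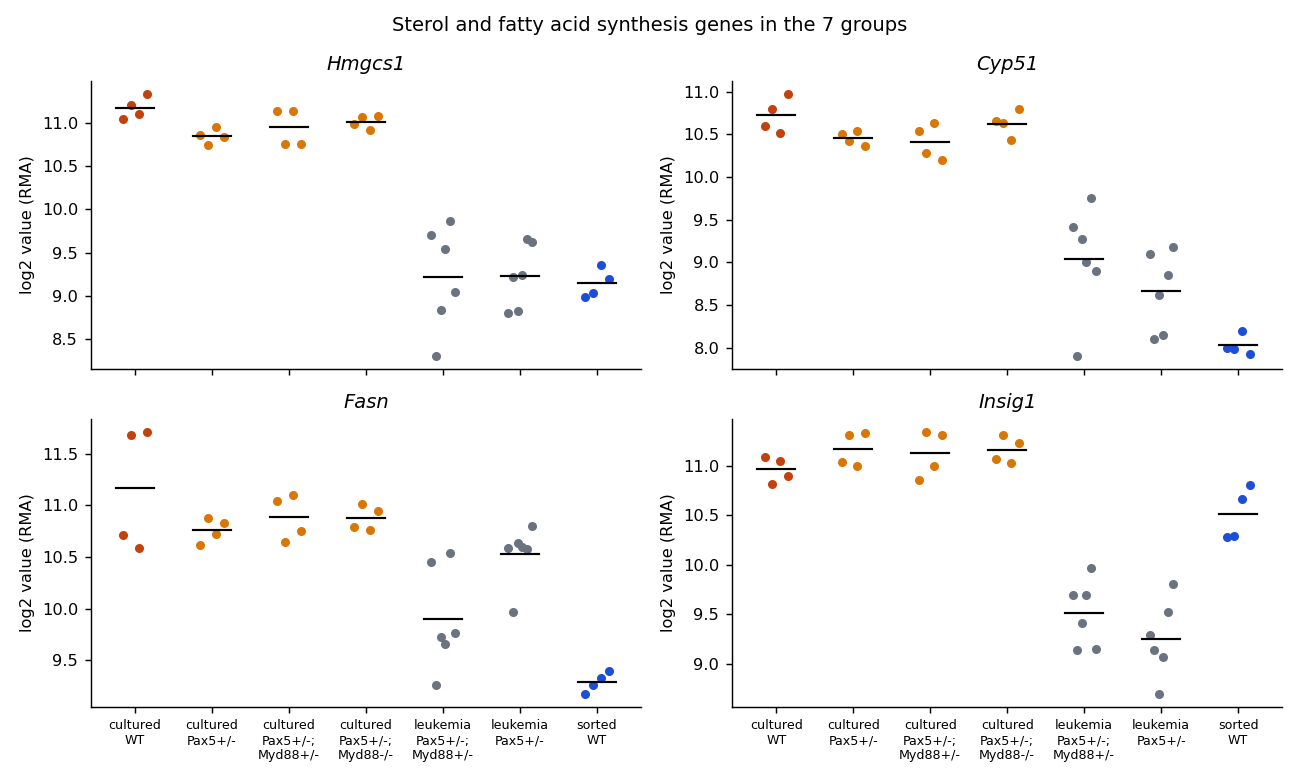
Log2 values of Hmgcs1, Cyp51, Fasn and Insig1 on each array (points) with group means (lines) in the 7 groups, cultured WT at left and sorted WT at right. For Hmgcs1 and Cyp51 all cultured genotypes lie above 10, and the sorted WT arrays lie below 9.5.

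Of 11 genes of metallothioneins and zinc handling, 3 were called higher in cultured cells (Mt1, Mt2 and the zinc transporter Slc39a14, 1.10) and 1 lower (the zinc transporter Slc30a4, -1.18). Mt1 and Mt2 encode metallothioneins, small proteins that bind zinc and copper and are induced by metals and glucocorticoids. Mt2 read 10.64, 11.10, 10.59 and 10.78 in cultured cells, against 7.59, 7.22, 7.50 and 6.79 in sorted cells (3.50 ± 0.18; adjusted p = 3.32e-07). Mt1 read 10.83, 11.64, 11.09 and 11.30 in cultured cells, against 8.18, 7.99, 8.0 and 7.96 in sorted cells (3.18 ± 0.15; adjusted p = 2.15e-07). Both genes were over 9-fold higher, with no overlap between the groups. Mt3, the other metallothionein of the list, averaged 8.48 in cultured and 8.46 in sorted cells and was not called (adjusted p = 0.881). The other cultured genotypes varied for Mt2, which averaged 7.60 in cultured Pax5+/-, 8.24 in cultured Pax5+/-;Myd88+/- and 11.48 in cultured Pax5+/-;Myd88-/- cells, against 7.28 in sorted WT cells. Mt1 averaged 10.65, 10.12 and 12.07 in the same 3 cultured genotypes, against 8.03 in sorted WT cells. The level of Mt2 in the first 2 of these genotypes thus lay nearer to the sorted than to the cultured WT mean. Their promoters are shown because the letters TGCNCNC recur in them (capitals, both strands, GRCm38.p6, chr8:94178839-94179138 and chr8:94172368-94172667, both plus strand). This pattern is looser than the core of the metal response element, the site of the metal-sensing factor MTF1, so that not every marked stretch need be such an element.
Mt1 promoter: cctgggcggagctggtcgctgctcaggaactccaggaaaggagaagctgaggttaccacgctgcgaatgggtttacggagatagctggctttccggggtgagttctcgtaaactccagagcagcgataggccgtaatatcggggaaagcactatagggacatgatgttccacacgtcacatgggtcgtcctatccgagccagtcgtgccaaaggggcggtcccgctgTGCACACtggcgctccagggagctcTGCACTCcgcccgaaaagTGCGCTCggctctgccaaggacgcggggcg
Mt2 promoter: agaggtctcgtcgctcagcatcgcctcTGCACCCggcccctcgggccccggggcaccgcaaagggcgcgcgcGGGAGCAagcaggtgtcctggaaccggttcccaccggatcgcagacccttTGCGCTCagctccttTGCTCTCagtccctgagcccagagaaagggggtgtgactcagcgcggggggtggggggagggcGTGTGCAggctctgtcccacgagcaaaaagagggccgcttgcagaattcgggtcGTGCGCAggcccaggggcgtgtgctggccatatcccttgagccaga
The Mt1 window held 3 matches and the Mt2 window 6, and 7.29% of all genes had 3 or more. At least 1 match was found in 53.6% of all genes. These too are matches of letters and not sites shown to be bound. In 35 genes of glycolysis and hypoxia, 6 were called higher and 2 lower. Pdk1, the kinase that holds pyruvate back from the mitochondria, read 10.23 to 10.46 in cultured and 7.89 to 8.47 in sorted cells (2.14 ± 0.11; adjusted p = 4.08e-07). Of 35 genes of the ATF4 amino acid response, 5 were called higher and 1 lower, led by Asns, the asparagine synthetase, at 9.55 to 10.43 in cultured and 8.09 to 8.37 in sorted cells (1.78 ± 0.21; adjusted p = 8.06e-05).

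**Figure D3:**
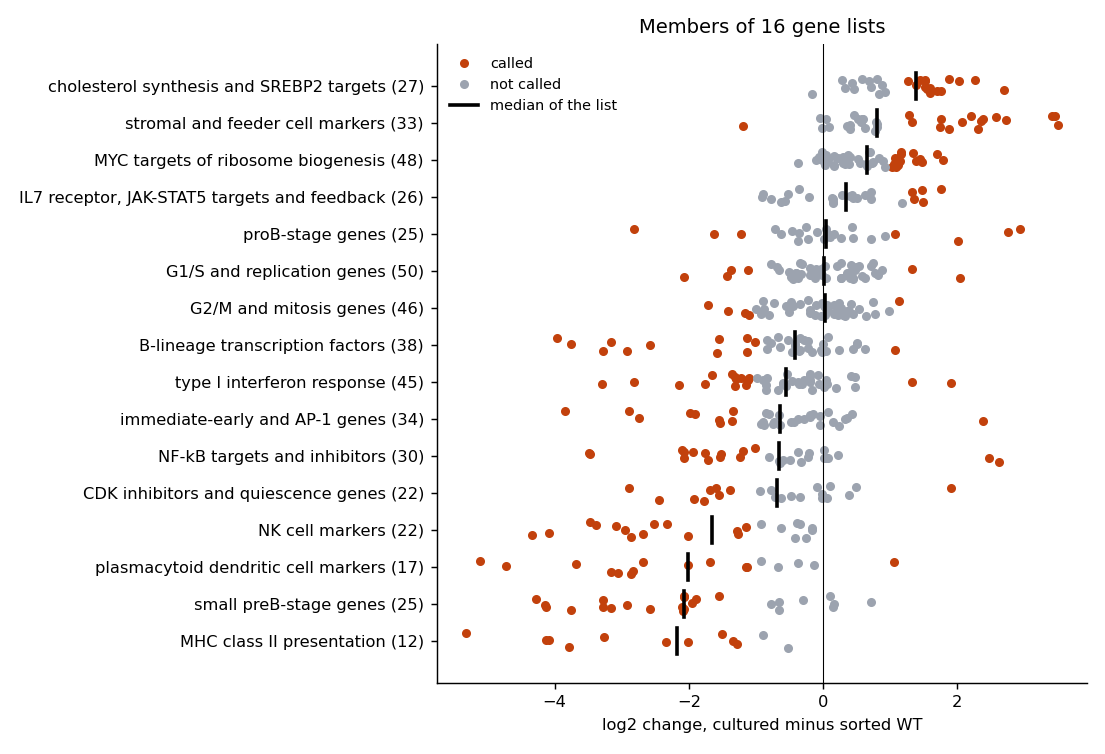
Log2 change, cultured minus sorted WT, of each member of 16 gene lists (points, orange where called, grey where not) with the median of the list (black bar) and its number of genes in brackets. The sterol list has the highest median shown (1.39), and the MHC class II and small preB lists have the lowest (-2.18 and -2.08).

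Immediate-early, NF-kB and interferon genes were lower in culture. Of 34 immediate-early and AP-1 genes, 9 were called lower and 1 higher (median -0.64). Sik1, a kinase induced by cAMP signaling, read 7.58, 7.92, 7.70 and 7.98 in cultured cells, against 11.14, 11.49, 11.92 and 12.03 in sorted cells (-3.85 ± 0.19; adjusted p = 2.51e-07). Zfp36, which destabilizes cytokine mRNAs, moved by -2.74. Genes of this class are known to respond within minutes to the handling of fresh tissue, and the time between marrow collection and lysis is not given for either group.

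Of 30 NF-kB targets and inhibitors, 13 were called lower and 2 higher (median -0.65). Nfkbid, an inhibitor-like regulator of NF-kB, read 7.89 to 8.24 in cultured and 9.80 to 10.42 in sorted cells (-2.10 ± 0.14; adjusted p = 1.63e-06). Tnf and Lta, neighbouring cytokine genes on chromosome 17, were the members called higher. Tnf read 9.47, 10.96, 9.48 and 10.93 in cultured cells, against 7.90, 7.23, 7.51 and 7.73 in sorted cells (2.62 ± 0.36; adjusted p = 0.000257). Of 45 type I interferon response genes, 14 were called lower and 2 higher (median -0.55), led by Sp100, a nuclear body protein (-3.30), and Rsad2, the antiviral protein viperin (-2.82). Ifitm1, an interferon-inducible membrane protein, ran the other way among all genes, at 10.83, 11.30, 10.97 and 11.14 in cultured cells, against 6.73, 7.0, 6.94 and 6.33 in sorted cells (4.31 ± 0.15; adjusted p = 3.55e-08).

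The receptors for bacterial products changed unevenly. Of 22 genes of Toll-like receptors and their Myd88 complex, 6 were called lower and 1 higher (median -0.61). Ly86, which encodes MD-1, the partner of the Toll-like receptor homologue RP105 on B cells, read 5.35, 5.42, 5.36 and 5.14 in cultured cells, against 11.36, 11.33, 11.14 and 11.15 in sorted cells. It was 60.9-fold lower in cultured cells (-5.93 ± 0.08; adjusted p = 1.2e-10). Tlr4, the receptor for lipopolysaccharide, read 8.89, 8.07, 8.93 and 8.18 in cultured cells, against 6.52, 6.94, 6.51 and 6.01 in sorted cells (2.02 ± 0.24; adjusted p = 9.75e-05). Ly96, which encodes the MD-2 subunit that Tlr4 needs to bind lipopolysaccharide, moved the opposite way (-2.43 ± 0.16; adjusted p = 1.55e-06). Whether RNA of the feeder cells had a part in the rise of Tlr4 was not tested. Tirap, the adaptor that brings Myd88 to Tlr4, read 6.47 to 6.80 in cultured and 8.49 to 8.83 in sorted cells (-2.15 ± 0.10; adjusted p = 1.82e-07). Myd88 averaged 9.46 ± 0.19 in cultured and 10.08 ± 0.06 in sorted cells, a change of -0.62 that was under the fold threshold (adjusted p = 0.00033).

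Genes whose level depends on age in early B cells were read because the methods give young mice for the cultures. Igf2bp3, an RNA-binding protein of fetal and neonatal lymphoid cells in mice, read 9.58, 9.65, 9.62 and 9.74 in cultured cells, against 6.57, 6.54, 7.10 and 6.77 in sorted cells (2.90 ± 0.12; adjusted p = 7.14e-08). Grb10, an imprinted adaptor of growth factor receptors, averaged 8.82 ± 0.06 in cultured and 6.35 ± 0.08 in sorted cells (2.48; adjusted p = 3.31e-09). Lin28b, the fetal regulator upstream of Igf2bp3 in mice, read 5.35 to 5.63 in cultured and 5.25 to 5.45 in sorted cells. Of 17 such genes, 2 were called higher and 1 lower, with a median of 0.14. Igf2bp3 also averaged 9.60 to 9.72 in the other cultured genotypes and 9.50 (Pax5+/-;Myd88+/-) and 9.26 (Pax5+/-) in the leukemias. Grb10 varied between the cultured genotypes, averaging 7.58 in Pax5+/-, 6.85 in Pax5+/-;Myd88+/- and 8.72 in Pax5+/-;Myd88-/- cells. In leukemias Grb10 averaged 8.11 (Pax5+/-;Myd88+/-) and 8.83 (Pax5+/-).

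The largest changes named by rule lay mostly outside these lists. Besides Ly86, H2-Aa and H2-Ea, the falls were Serinc5, a membrane protein that restricts retroviruses (-5.89), Mctp2, a calcium-binding membrane protein (-5.84), Adgre5, which encodes the adhesion receptor CD97 (-5.61), Slamf7 (-5.27) and Slamf6 (-5.19), receptors of lymphocytes and NK cells. Serinc5 read 6.35, 6.51, 6.59 and 6.47 in cultured cells, against 12.31, 12.31, 12.44 and 12.42 in sorted cells. The rises were Gas5, the host gene of several small nucleolar RNAs (4.94), Myl10, a myosin light chain expressed in precursor lymphocytes (4.63), Vat1l (4.50), Ifitm1 (4.31), Clgn, a chaperone of the endoplasmic reticulum (4.29), Hibadh, an enzyme of valine breakdown (4.2), Pde8a, a cAMP phosphodiesterase (4.19), and Top2a, the topoisomerase of dividing cells (3.82). Myl10 read 11.86, 11.90, 11.82 and 11.83 in cultured cells, against 6.92, 7.59, 7.20 and 7.18 in sorted cells. The Gas5 and Top2a values depended on the probeset: the other Gas5 probesets changed by 0.62, 2.48 and 2.69, and the brighter Top2a probeset changed by 0.38. On the probesets listed, Gas5, Hibadh and Top2a also differed by over 1 log2 unit between the leukemia genotypes, which were not cultured. Gas5 averaged 10.47 (Pax5+/-;Myd88+/-) and 8.33 (Pax5+/-) there, Hibadh 9.51 and 6.04, and Top2a 8.48 and 5.56. The other rises listed differed there by less than 1. What sets these 3 genes apart was not tested.

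Adgre5 and Slamf6 also differed between cultured genotypes. Adgre5 averaged 6.08 in cultured WT, 9.01 in cultured Pax5+/-, 5.84 in cultured Pax5+/-;Myd88+/- and 5.74 in cultured Pax5+/-;Myd88-/- cells, and Slamf6 averaged 6.38, 6.15, 9.71 and 6.02 in the same order. Over the 1926 called genes, the mean of cultured Pax5+/- cells lay nearer to cultured than to sorted WT for 93.1%, that of cultured Pax5+/-;Myd88+/- cells for 92.7% and that of cultured Pax5+/-;Myd88-/- cells for 90.7%. For the leukemias, which were not cultured, the share was 72.1% (Pax5+/-;Myd88+/-) and 38.0% (Pax5+/-). These shares use the genes that the comparison itself called and are a description.

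Markers of other marrow cells moved with the comparison. Of 22 NK cell markers, 14 were called lower and 0 higher in cultured cells, and their mean level was 5.72 to 5.89 on the cultured and 7.35 to 8.06 on the sorted arrays. Ncr1, the NK cell receptor NKp46, read 4.95, 5.11, 5.19 and 5.13 in cultured cells, against 9.97, 9.31, 9.37 and 9.10 in sorted cells (-4.34 ± 0.16; adjusted p = 4.74e-08). Of 17 markers of plasmacytoid dendritic cells, which are B220-positive and IgM-negative and so can fall in the sort gate, 12 were called lower and 1 higher, with mean levels of 7.20 to 7.25 on the cultured and 9.13 to 9.42 on the sorted arrays. Siglech, their surface lectin, read 6.17 to 6.36 in cultured and 10.75 to 11.18 in sorted cells (-4.73 ± 0.09; adjusted p = 8.17e-10). Ly6d, found on both these cells and B-cell precursors, moved by -5.12. Granulocyte markers split the sorted group, with mean levels of 6.05 to 6.09 on the cultured arrays against 8.54, 8.42, 6.76 and 6.70 on the sorted arrays. Lcn2, a granule protein of neutrophils, read 4.94 to 5.24 in cultured cells, against 11.34, 11.33, 8.63 and 8.37 in sorted cells. Of 23 granulocyte markers, 11 were called lower, and 5 when only sorted arrays 3 and 4 were used.

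Markers of other lineages differed less or in fewer members. Erythroid markers had mean levels of 6.93 to 6.97 on the cultured and 7.69 to 7.99 on the sorted arrays (6 of 14 lower, 1 higher), led by Slc4a1, the band 3 anion exchanger (-3.35). T cell markers stood at 6.40 to 6.51 on the cultured and 6.67 to 6.79 on the sorted arrays (2 of 18 lower). The called members were Cd3g (-1.54) and Thy1 (-1.19), and Cd3e, the T-cell receptor chain, moved by -0.57 and was not called. Macrophage and monocyte markers stood at 6.55 to 6.73 on the cultured and 6.84 to 7.04 on the sorted arrays (2 of 22 lower). Platelet and megakaryocyte markers stood at 6.83 to 7.03 on the cultured and 6.96 to 6.99 on the sorted arrays, but single members moved. Nrgn (-1.18) and Itgb3 (-1.03) were called lower and Thbs1 (3.50), also in the stromal list, higher. Pf4, the platelet factor, read 5.13 to 5.23 in cultured and 5.14 to 5.30 in sorted cells. Spib, Irf8, Irf4, Id2, the class II genes and Ly86 are also expressed by dendritic cells or NK cells, and the part of these cells in their changes was not tested. Irf7 and Bst2, both called lower, were counted in the interferon list and in the plasmacytoid dendritic cell list. The part of such cells in the fall of the interferon genes was not tested either.

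Stromal markers were higher on the cultured arrays. Of 33 markers of stroma and feeder cells, 15 were called higher and 1 lower, and their mean level was 8.36, 7.82, 8.35 and 7.81 on the cultured arrays and 6.78 to 6.86 on the sorted arrays. Sparc, a matrix glycoprotein of stromal cells, read 10.68, 9.47, 10.58 and 9.44 in cultured cells, against 6.80, 6.66, 6.69 and 6.36 in sorted cells (3.42 ± 0.29; adjusted p = 9.21e-06). Col1a1, the collagen chain of fibroblasts and osteoblasts, read 10.54, 9.38, 10.49 and 9.44 in cultured cells, against 7.96, 7.98, 8.10 and 8.28 in sorted cells (1.88 ± 0.27; adjusted p = 0.000295). Arrays 1 and 3 were higher than arrays 2 and 4 for both genes. Other called members ran the other way: Alpl, an alkaline phosphatase of bone-forming cells, averaged 10.74 on arrays 1 and 3 and 11.30 on arrays 2 and 4, and Igfbp4, which binds insulin-like growth factors, averaged 10.71 and 11.24. Sparc averaged 9.70, 9.54 and 9.14 in cultured Pax5+/-, Pax5+/-;Myd88+/- and Pax5+/-;Myd88-/- cells. Alpl averaged 7.29, 7.30 and 8.09 in the same order, below its sorted WT mean of 8.67. The called members were thus not alike across the cultured genotypes. Mt1, Mt2, Cdkn2a and the sterol genes are expressed by stromal cells as well, and the part of feeder RNA in their rise was not tested. Tlr4 was also higher on arrays 1 and 3 than on arrays 2 and 4. The part of feeder RNA in the rise of Tlr4 was not tested either.

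**Figure D4:**
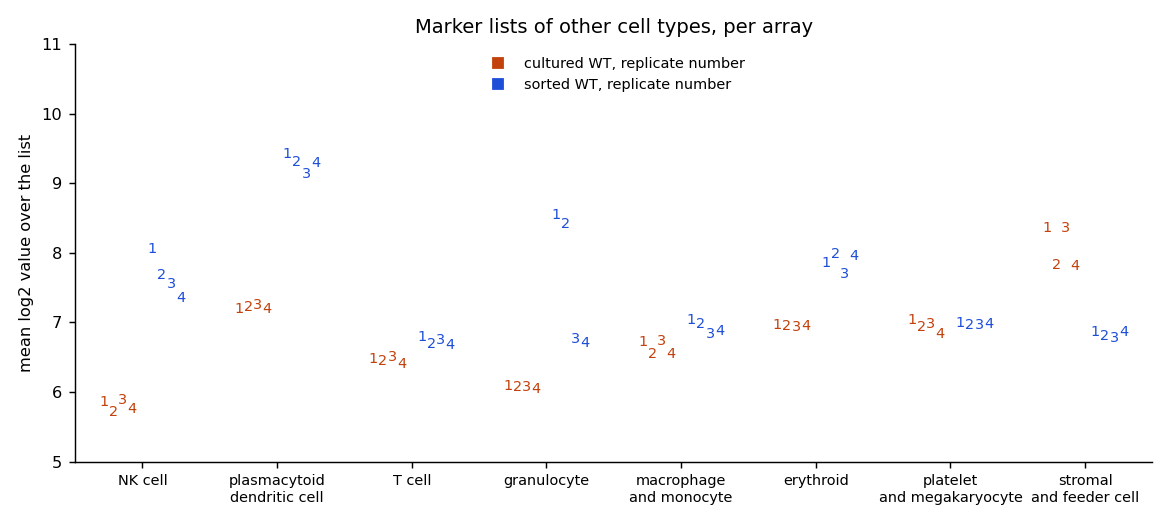
Mean log2 value of 8 lists of markers of other cell types on each array, with the replicate number as the symbol, cultured WT in orange at left and sorted WT in blue at right. NK, plasmacytoid dendritic, erythroid and, on sorted arrays 1 and 2, granulocyte lists are higher in the sorted group, and the stromal list is higher in the cultured group, most on arrays 1 and 3.

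Calls were also counted in further RNA and gene classes. Of 51 small nucleolar and Cajal-body RNAs, 23 were called higher (45.1%) and 1 lower, with a median of 0.92. Snord22, a small nucleolar RNA, read 12.41, 12.63, 12.42 and 12.63 in cultured cells, against 7.07, 6.93, 6.97 and 6.91 in sorted cells (5.55 ± 0.07; adjusted p = 9.9e-11). Of 76 nuclear genes of oxidative phosphorylation, 15 were called lower and 3 higher (median -0.50), led by Atp5d, a subunit of ATP synthase, at 9.44 to 10.08 in cultured and 12.88 to 12.95 in sorted cells (-3.27 ± 0.13; adjusted p = 6.67e-08). Of 38 proteasome genes, 6 were called lower and 2 higher, and of 55 ribosomal protein genes, 5 were called higher and 0 lower. Over all genes, 7.07% were called lower and 3.01% higher. The proteasome genes did not move together, with changes from -2.56 (Psmb3) to 1.04 (Psmd11).

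The same classes differed between the leukemia genotypes, which are arrays outside the comparison and had no culture step. Over all autosomal genes, the mean of the Pax5+/-;Myd88+/- leukemias lay over 1 log2 unit above that of the Pax5+/- leukemias for 0.429% and over 1 below it for 3.29%. Of the 23 small nucleolar and Cajal-body RNAs called higher in culture, 21 were over 1 higher there (91.3%, median difference 1.93), and of the 15 oxidative phosphorylation genes called lower, 10 were over 1 lower (66.7%). Of the 6 proteasome genes called lower, 5 were over 1 lower, and all 3 histone genes called higher were over 1 higher. None of the 16 MYC targets, of the 5 IL7 response genes or of the 15 sterol genes called higher was over 1 higher there. Over the called genes as a whole, 10.3% of those higher in culture were over 1 higher and 24.7% of those lower in culture were over 1 lower.

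Without the genes that differed by over 1 between the leukemia genotypes, 2 of 26 small nucleolar RNAs were called higher, 5 of 59 oxidative phosphorylation genes lower and 1 of 32 proteasome genes lower. The small preB list kept 15 of 23 genes called lower with a median of -2.07, the sterol list 14 of 26 called higher, the MYC list 16 of 47 and the IL7 list 5 of 25. The class II list had 4 of 6 called lower. What sets these RNA classes apart was not tested, and no label gives the date or batch of RNA preparation or hybridization.

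**Figure D5:**
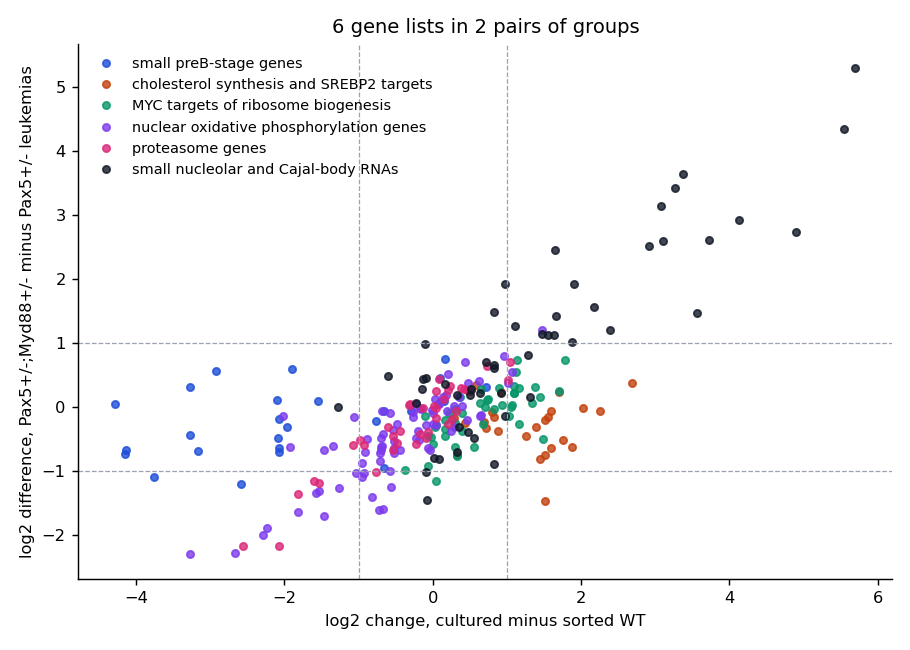
Log2 change between cultured and sorted WT cells (x axis) against the log2 difference between the means of Pax5+/-;Myd88+/- and Pax5+/- leukemias (y axis) for members of 6 gene lists, with dashed lines at -1 and 1. Small nucleolar RNAs lie high on both axes and oxidative phosphorylation and proteasome genes low on both, whereas sterol and small preB genes that changed by over 1 on the x axis lie mostly between -1 and 1 on the y axis.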

How the data were processed

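Gene expression was measured on mouse gene arrays. The deposited log2 values were made by the authors with gene-level RMA normalization in Transcriptome Analysis Console 4.0.1, and they were used as deposited. Of 28944 probesets, 21789 named 1 gene, 1621 several and 5534 none in the platform annotation. The 4 cultured and 4 sorted WT arrays, grouped by title, were compared with limma 3.58.1 in R 4.3.3 (lmFit and eBayes), with Benjamini-Hochberg adjustment over all probesets and thresholds of 0.05 and a log2 change of 1. A gene was represented by its probeset with the highest mean over the 8 arrays. The number of arrays limits the precision. The procedure was tested on simulated data. The members and the 50 gene lists were chosen with earlier results of these data known. Genes were named as the 8 largest rises and 8 largest falls with 1 gene and no overlap, the 3 largest called members per list and direction, all members of the B-lineage factor, pre-B-cell receptor, recombination, IL7, small preB and sex-linked lists, and defining markers. Dntt, Flt3, Lin28b, Dusp1, Mt3, Alpl, Igfbp4, Fasn, Insig1, Srebf2, Tm7sf2 and the miR-17 cluster were picked after their values were seen. Alternatives changed the normalization, filter, thresholds, model and arrays used. The authors' array images were not used here.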

Additional observations from a re-analysis of the deposited data

Results flagged for a closer look

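Of 278 groups of 4 arrays examined over the genes named, 11 held an array that stood far from the other 3, and chance alone is expected to give such a gap in about 1 of 20 groups. In cultured cells these were Ikzf3 on array 2 (8.04, against 8.02 on the other 3), Prdm1 on array 3 (5.43) and Dusp1 on array 3 (8.97). In sorted cells they were Kit (7.46), Blnk (12.07) and Pik3cd (9.94) on array 4, Bank1 (9.08), Lta (6.49) and Ly6d (10.72) on array 3, Tirap on array 1 (8.49) and Mir19a on array 2 (5.08).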

How the results depend on the processing

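No alternative reversed a named result. Against 2154 probesets called (684 higher, 1470 lower), 10470 were called with no fold threshold (5232 higher, 5238 lower) and 1060 when limma tested against a log2 change of 1 (266 higher, 794 lower). Leaving out 1 array at a time gave 2054 to 2269 (657 to 723 higher, 1397 to 1547 lower). Quantile normalization again, over all probesets or over those with a single gene, raised the share of calls that were higher to 37.8% and 40.8%, against 31.8%, and the single-gene form gave no value for small nucleolar RNAs and histones. Of 139 named genes, 108 were called, and 101 of these were called under every alternative except the test against a log2 change of 1, which lost 23. That test left 3 MYC targets, 9 sterol genes and 0 IL7 response genes called higher. Leaving out 1 array ended the calls of Bank1 (cultured array 1, -0.95, or 3, -0.89), Klf3 (cultured array 4, -0.93) and Zeb2 (cultured array 2, -0.80, or 4, -0.86, or sorted array 2, -1.0). The replicate numbers did not pair the arrays (correlations of deviations -0.07 to 0.022), and a replicate block called 2154 probesets and changed no named call. The files hold no detection call, so that dim values bound no level.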
